A study of Oryctolagus cuniculus with 16 samples.

Results

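The chemokine system was taken as the genes whose symbols name a chemokine ligand (CCL, CXCL, CX3CL or XCL with a number), a chemokine receptor (CCR, CXCR, CX3CR or XCR with a number) or an atypical chemokine receptor (ACKR with a number). Of the 20255 genes listed in the total RNA-seq data, 45 carried such a symbol, of which 41 are described here. *CXCL12*, *CXCR4* and *CXCR2* were left out of the set. Of the 41 genes, 22 were ligands, 15 were signaling receptors and 4 were atypical receptors. A total of 39 were detected, with at least 10 counts over the 8 libraries, and 33 passed the low-count filter and were tested. *CCL1* and *CCL24* were not detected. *CCL17*, *CCL25*, *CCL28*, *CXCL13*, *CCR8* and *CCR10* were detected but were removed by the filter.

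Femoral head tissue from 5 rabbits of the Perthes disease group and 3 wild-type rabbits of the control group was sequenced. Perthes disease is a necrosis of the femoral head of growing children. In the rabbit model, the hip was opened at 8 weeks of age, the femoral neck was tied off with a suture and the ligament that joins the femoral head to the hip socket was cut. The same tissue was taken in both groups, each library came from 1 labelled rabbit, and the sources used here do not state the age at sampling, the sex or whether the control hips were operated on.

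Chemokines are small secreted or membrane-bound proteins that guide leukocytes along gradients and into tissues. They bind receptors that couple to inhibitory G proteins and steer the actin cytoskeleton, while the atypical receptors bind or internalise chemokines without this signal. In bone, chemokines take part in the traffic of neutrophils, monocytes and osteoclast precursors between marrow, blood and damaged tissue. The expression of each gene rests on whole-tissue RNA, in which fewer cells of a type and less RNA per cell cannot be told apart.

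The libraries held 26757087 to 29461482 counts. Levels are given as CPM, the read count of a gene relative to the library total after TMM scaling, on which 1 count corresponded to 0.0333 to 0.0374 CPM. The values were not divided by gene length, so levels were compared between rabbits and not between genes. Markers of the bone and cartilage of the labelled tissue were present in every library. The 6 osteoblast markers summed to 45988 CPM or more, and the 6 chondrocyte markers to 34366 CPM or more. No marker of either list was called by edgeR, with 1 and 2 higher at an unadjusted p below 0.05, and DESeq2 called 1 and 0 higher. Of the other cell type lists, edgeR called 2 of 6 osteoclast and 2 of 6 stromal markers and 1 of 3 dendritic cell markers higher, 1 of 2 NK cell markers lower and none of the adipocyte and skeletal muscle markers, of which 1 muscle marker was lower at an unadjusted p below 0.05 and DESeq2 called 0. The first principal component held 56.1% of the variance and the second 13.1%, on which Perthes rabbit 4 stood apart from the other 7 libraries at -78.4. Differential expression was tested with the quasi-likelihood F-test of edgeR, and a gene was called when its p-value, adjusted by the Benjamini-Hochberg method over the 15305 genes tested, was below 0.05. The p-values measure the spread between these rabbits. Log2 fold changes are of Perthes disease over control, with their standard errors (SE), and means are given with standard deviations (SD).

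Of the 33 genes tested, 8 were called. *CCL2*, *CCL20*, *CXCL16* and *CCL19* were higher in the Perthes disease group, by log2 fold changes of 2.03 to 3.81, and *ACKR1*, *CCR3*, *CXCR1* and *CCL14* were lower, with log2 fold changes of -1.27 to -2.54. The genes called higher encode attractants of monocytes, Th17 cells, T cells and dendritic cells. Those called lower encode a ligand that also acts on monocytes (*CCL14*), receptors of neutrophils and eosinophils (*CXCR1* and *CCR3*) and an atypical receptor (*ACKR1*). Across all genes tested, 15.1% were called, with 6.21% called higher and 8.86% called lower. The median log2 fold change of the 33 genes was 0.20, against 0.02 over all genes tested, and 20 of the 33 were above 0. In 5 of the 33 genes every Perthes rabbit lay above every control rabbit, against 11.2% of all genes tested, and in 3 every Perthes rabbit lay below, against 13.9%. All of *CCL2*, *CCL20*, *CXCL16*, *CCL19* and *CCR7* were in the former set, and *ACKR1*, *CCR3* and *CCL27* were in the latter. Of these, *CCL2*, *CCL20* and *CCL19* passed the low-count filter through the Perthes disease group and *CCR3* through the control group. DESeq2 called 7 of the genes higher and 5 lower, where 9.74% and 11% of all genes with an adjusted p in that test were called. All 8 edgeR calls also lay beyond a log2 fold change of 1, as 4.21% of all genes did when called higher and 6.72% when called lower. The thresholds of the study were an adjusted p below 1e-05 and a log2 fold change beyond 2 in either direction. At these, edgeR called none of the set and 0 of all 15305 genes tested. At an unadjusted p below 0.05, 7 genes of the set were higher and 9 lower in edgeR. DESeq2 called *CCL2* and *CXCL16* higher and *ACKR1* lower at the thresholds of the study, against 1.12% of all genes. Calls changed when single rabbits were left out, in the set and over all genes. Without control 1 or without control 2, edgeR called none of the genes in either direction at an adjusted p below 0.05, although 6 were higher at an unadjusted p below 0.05 in both cases, and 6 and 7 were lower. Over all genes, 73 were called higher and 184 lower without control 1, and 0 in either direction without control 2, where 3722 had an unadjusted p below 0.05, against 951 higher and 1356 lower with all rabbits. Without Perthes rabbit 4, 4 genes of the set were called higher and 2 lower, while over all genes 1267 were called higher and 1423 lower. Leaving out Perthes rabbit 2 or 5 left 2 of the set called higher, and 941 and 351 over all genes. Leaving out Perthes rabbit 1, 3 or 5 or control 3 left 2, 1, 1 and 2 of the set called lower. Over all genes, 1198, 646, 550 and 1183 were then called lower.

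**Figure D1:**
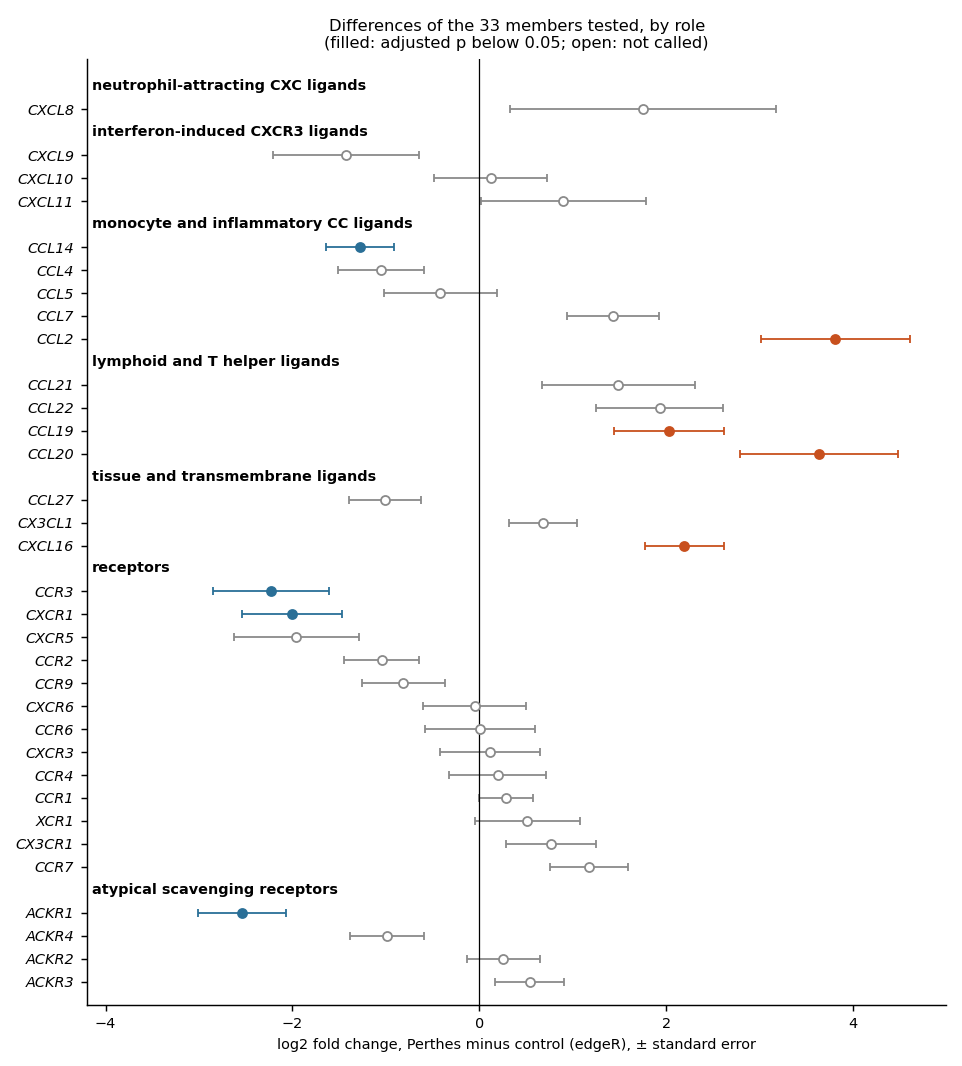
Log2 fold change of Perthes disease over control on the horizontal axis for the 33 genes tested, grouped by role, with bars of 1 standard error and filled points for the 8 genes with an adjusted p below 0.05 in edgeR. The 4 filled points on the right are *CCL2*, *CCL20*, *CXCL16* and *CCL19*, between 2.03 and 3.81, and the 4 on the left are *CCL14*, *CXCR1*, *CCR3* and *ACKR1*, between -1.27 and -2.54.

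Of the 5 CC ligands tested that draw monocytes and other inflammatory leukocytes, *CCL2* was called higher and *CCL14* lower, and *CCL4*, *CCL5* and *CCL7* were not called by edgeR with all rabbits. *CCL2* (gene 100009130) encodes the monocyte chemoattractant protein MCP-1, which binds *CCR2*. It was measured at 2.57, 0.824, 0.771, 1.56 and 1.80 CPM in Perthes rabbits 1 to 5 and at 0.107, 0 and 0.2 CPM in controls 1 to 3. Each Perthes rabbit was above each control, and control 2 held no *CCL2* read, which allows a level of up to 0.106 CPM (3 counts, for counting error only). The controls held 3, 0 and 6 counts, so *CCL2* passed the low-count filter through the Perthes disease group. The mean was 1.51 ± 0.746 CPM (SD, n = 5) in the Perthes disease group and 0.102 ± 0.0999 CPM (SD, n = 3) in the control group, with a log2 fold change of 3.81 (SE 0.79, edgeR adjusted p = 0.0176). The estimate depended on single controls, at 3.25 without control 2 (adjusted p = 0.0553), 3.84 without control 1 (adjusted p = 0.0745) and 4.71 without control 3 (adjusted p = 0.0283).

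*CCL14* (gene 100348517), a chemokine found in plasma that acts on monocytes through *CCR1* after it is cleaved, was measured at 23.5, 11.8, 8.33, 8.70 and 7.96 CPM in Perthes rabbits 1 to 5. The controls were at 33.5, 31.2 and 22.7 CPM. Perthes rabbit 1 lay between controls 2 and 3, and the other 4 Perthes rabbits lay below all controls. The log2 fold change was -1.27 (SE 0.36, edgeR adjusted p = 0.0463), and the adjusted p was above 0.05 when any 1 rabbit other than Perthes rabbit 1 was left out, from 0.0569 to 0.147.

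*CCL7*, the monocyte chemoattractant MCP-3, lies next to *CCL2* in the RefSeq gene order. It ranged from 0.982 to 4.96 CPM in the Perthes disease group and from 0.846 to 1.57 CPM in the control group, with a log2 fold change of 1.43 (SE 0.49, edgeR adjusted p = 0.0803). Perthes rabbit 4 was the only Perthes rabbit within the control range. DESeq2 called *CCL7* higher (adjusted p = 0.0212), as did edgeR without Perthes rabbit 4 (log2 fold change 1.66, adjusted p = 0.017). *CCL4* and *CCL5* encode chemokines that T cells, NK cells and macrophages secrete. *CCL4* ranged from 0.899 to 2.75 CPM against 1.97 to 6.82 CPM in the controls (log2 fold change -1.05, SE 0.46, edgeR adjusted p = 0.154). *CCL5* ranged from 1.57 to 8.88 CPM against 2.15 to 10 CPM (log2 fold change -0.42, SE 0.60, edgeR adjusted p = 0.666). Neither ligand was called, and the groups overlapped for both.

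The neutrophil-attracting ligands were represented under these symbols by *CXCL8* alone. *CXCL8* (interleukin-8) draws neutrophils through *CXCR1* and *CXCR2*. It was measured at 4.96, 5.92, 2.68, 201 and 14.9 CPM in Perthes rabbits 1 to 5 and at 23.5, 11.2 and 6.05 CPM in the controls. Perthes rabbit 4 was above every other rabbit, and 3 of the other Perthes rabbits were below all 3 controls. The log2 fold change was 1.75 (SE 1.42, edgeR adjusted p = 0.428) with all rabbits and -0.93 without Perthes rabbit 4 (adjusted p = 0.322), so its direction rested on that rabbit.

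*CXCL9*, *CXCL10* and *CXCL11* are induced by interferon and draw activated T cells and NK cells through *CXCR3*. They lie side by side in the gene order, and none of the 3 was called. *CXCL9* was at 0.136 to 1.22 CPM in the Perthes disease group and 0.494 to 3.33 CPM in the control group (log2 fold change -1.42, SE 0.78, edgeR adjusted p = 0.243). *CXCL10* was at 0.619 to 6.79 CPM against 2.5 to 4.49 CPM (log2 fold change 0.13, SE 0.60, edgeR adjusted p = 0.903). *CXCL11* was at 0.218 to 5.29 CPM against 0.388 to 1.73 CPM (log2 fold change 0.90, SE 0.88, edgeR adjusted p = 0.511). The 3 ligands together summed to 1.09 CPM in Perthes rabbit 4 and to 11.3 CPM in Perthes rabbit 3, and the controls lay within that range at 3.70 to 9.55 CPM.

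All 4 of the lymphoid and T helper ligands tested had log2 fold changes above 0, and *CCL20* and *CCL19* were called higher. The controls held 1 count each of *CCL20* and 2, 2 and 8 counts of *CCL19*, so both passed the low-count filter through the Perthes disease group. The shared direction therefore depends in part on the filter and is not a result about the role. *CCL20* (gene 103348897) encodes the ligand of *CCR6*, which draws Th17 cells, B cells and immature dendritic cells. It was measured at 1.01, 0.412, 0.294, 0.109 and 0.579 CPM in Perthes rabbits 1 to 5 and at 0.0357, 0.0353 and 0.0333 CPM in the controls. Each control value was a single read. The 69 counts of the Perthes disease group against the 3 counts of the control group gave a depth-scaled ratio of 14.2, with a 95% interval of 4.65 to 70.3 that covers counting error only. On the log2 scale the change was 3.64 (SE 0.85, edgeR adjusted p = 0.0239), and the adjusted p was 0.0926, 0.0914 and 0.0615 without controls 1, 2 and 3. Without Perthes rabbit 1, 2 or 5 *CCL20* did not pass the low-count filter and was not tested.

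*CCL19* (gene 100348362) is a *CCR7* ligand that guides T cells and dendritic cells into lymphoid tissue. It was measured at 0.338, 0.637, 0.441, 0.946 and 0.511 CPM in Perthes rabbits 1 to 5 and at 0.0715, 0.0705 and 0.266 CPM in the controls. The highest control, control 3, was below the lowest Perthes rabbit, Perthes rabbit 1. *CCL19* had a log2 fold change of 2.03 (SE 0.59, edgeR adjusted p = 0.0487), and this adjusted p was the highest of the 8 calls. It was 2.94 without control 3 (adjusted p = 0.0321) and 1.73 without control 1 (adjusted p = 0.163) or control 2 (adjusted p = 0.174), and leaving out Perthes rabbit 2, 3, 4 or 5 gave adjusted p-values from 0.063 to 0.0874.

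*CCL21*, the other *CCR7* ligand and the neighbour of *CCL19* in the gene order, was not called. It was at 0.109 to 1.69 CPM in the Perthes disease group against 0.107 to 0.353 CPM in the control group (log2 fold change 1.49, SE 0.82, edgeR adjusted p = 0.245), and Perthes rabbits 4 and 5 lay within the control range. *CCL22*, a *CCR4* ligand made by macrophages and dendritic cells, was at 3.78, 1.2, 2.83, 1.64 and 6.23 CPM in Perthes rabbits 1 to 5 and at 0.286, 0.670 and 1.5 CPM in the controls. Its log2 fold change was 1.93 (SE 0.68, edgeR adjusted p = 0.0848), and Perthes rabbit 2 was the only one below the highest control. DESeq2 gave *CCL22* an adjusted p of 0.0148. *CXCL13*, the B cell attractant that binds *CXCR5*, was at 0.0675 to 0.715 CPM against 0.0665 to 0.0715 CPM, with 2 counts in each control, and was not tested. Fitted without the low-count filter, *CXCL13* had an edgeR adjusted p of 0.179, and DESeq2 gave 0.138. *CCL17*, which shares *CCR4* with *CCL22*, was at 0.184 CPM at most in any rabbit, with 12 counts in the Perthes disease group and 2 in the control group (ratio 3.69, 95% counting interval 0.822 to 34).

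**Figure D2:**
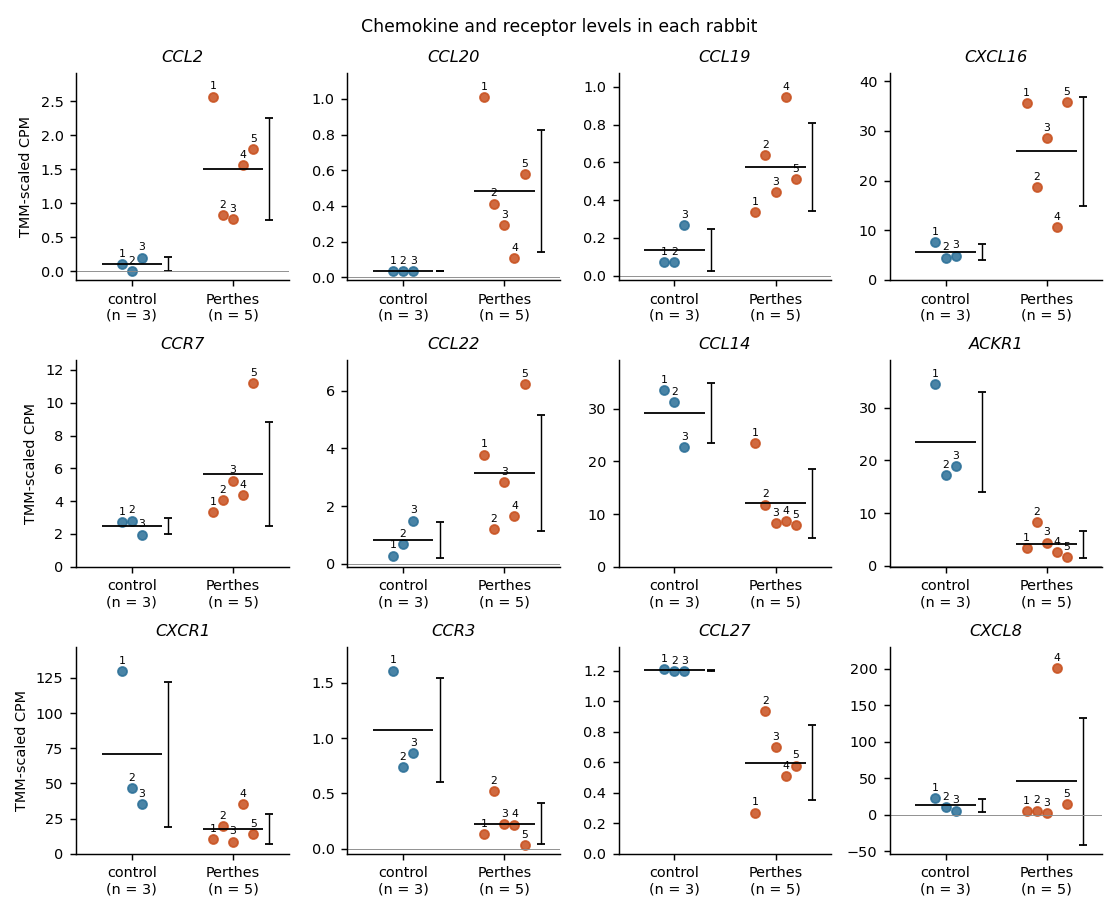
Level of 12 genes in TMM-scaled CPM on the vertical axis, with 1 numbered point for each of the 3 control and 5 Perthes rabbits, a line at the group mean and a bar of 1 SD to each side. The 5 genes from *CCL2* to *CCR7* have every Perthes rabbit above the controls, *ACKR1*, *CCR3* and *CCL27* have every Perthes rabbit below them, *CCL22*, *CCL14* and *CXCR1* overlap, and *CXCL8* is set apart by Perthes rabbit 4 at 201 CPM.

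Of the tissue-bound and transmembrane ligands, *CXCL16* was called higher. *CXCL16* (gene 100348428) encodes a membrane-anchored chemokine of macrophages and dendritic cells that binds *CXCR6* and also takes up oxidised lipoprotein. It was measured at 35.6, 18.6, 28.6, 10.7 and 35.8 CPM in Perthes rabbits 1 to 5 and at 7.54, 4.51 and 4.89 CPM in the controls. All 5 Perthes rabbits were above the controls, with Perthes rabbit 4 the lowest of them. The means were 25.9 ± 11 CPM (SD, n = 5) and 5.65 ± 1.65 CPM (SD, n = 3). The change was 2.20 on the log2 scale (SE 0.42, edgeR adjusted p = 0.015), and the call was lost without control 1 (adjusted p = 0.0514) or control 2 (adjusted p = 0.0657).

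*CX3CL1* (fractalkine), the other transmembrane chemokine, binds *CX3CR1* on monocytes and lies between *CCL22* and *CCL17* in the gene order. It was at 4.22 to 10.9 CPM in the Perthes disease group against 3.43 to 6.52 CPM in the control group (log2 fold change 0.68, SE 0.36, edgeR adjusted p = 0.229). *CCL27*, a skin-homing chemokine that binds *CCR10*, was at 0.270, 0.936, 0.698, 0.509 and 0.579 CPM in Perthes rabbits 1 to 5 and at 1.21, 1.2 and 1.2 CPM in the controls. The groups did not overlap for *CCL27*, and the gene was not called (log2 fold change -1.01, SE 0.38, edgeR adjusted p = 0.108). *CCL25*, the *CCR9* ligand of the thymus and gut, was at 0.109 CPM or less in the Perthes disease group and reached 0.750 CPM in control 1. *CCL28*, which also binds *CCR10*, was at 0.514 CPM in Perthes rabbit 3 and at 0.0728 CPM or less in the other rabbits. Neither *CCL25* nor *CCL28* was tested.

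Among the signaling receptors, *CXCR1* and *CCR3* were called lower. *CCR2*, the receptor of *CCL2* and *CCL7* on monocytes, was measured at 6.82, 18.5, 13.5, 8.99 and 11.7 CPM in Perthes rabbits 1 to 5 and at 40.3, 21 and 12.4 CPM in the controls. The groups overlapped and *CCR2* was not called (log2 fold change -1.05, SE 0.40, edgeR adjusted p = 0.11). Expected counts share out a read that matches more than 1 gene. The expected count of *CCR2* was not a whole number in 8 of 8 libraries, so its value is uncertain.

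*CXCR1* (gene 100328622), a receptor of *CXCL8* on neutrophils, was measured at 10.3, 19.8, 8.63, 35.5 and 14.0 CPM in Perthes rabbits 1 to 5 and at 130, 46.4 and 35.5 CPM in the controls. Perthes rabbit 4 and control 3 were level and the other 4 Perthes rabbits were below all controls. On the log2 scale the change was -2.0 (SE 0.53, edgeR adjusted p = 0.0368). It was -1.21 without control 1 (adjusted p = 0.178), and the adjusted p was also above 0.05 without control 2 or without Perthes rabbit 1, 2, 3 or 5 (0.0502 to 0.0916). Reads were shared with the neighbouring paralog *CXCR2*, and the sum of both genes was whole in 8 of 8 libraries. Summed, the pair was at 11.1, 27.3, 11.1, 48.4 and 16.2 CPM in Perthes rabbits 1 to 5 and at 206, 73.9 and 54.7 CPM in the controls. The groups did not overlap in the sum, which had a log2 fold change of -2.29 (SE 0.58, edgeR adjusted p = 0.0306). Genes of the neutrophil lineage were lower in the same rabbits, with 3 of 7 markers called lower and none higher. Their summed level was 27.4 to 1802 CPM in the Perthes disease group and 6751 to 22330 CPM in the control group, and none of the 7 was at 0 in any library. Their part in the level of *CXCR1* was not tested.

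**Figure D3:**
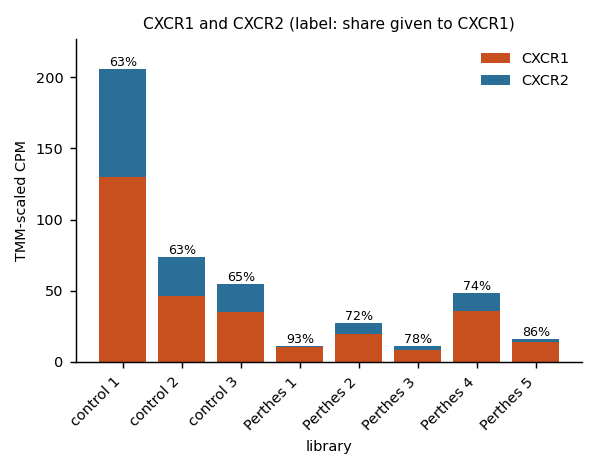
Stacked bars of TMM-scaled CPM in each library for *CXCR1* with *CXCR2*, with the percent of the sum given to *CXCR1* above each bar. The sum of both genes was 11.1 to 48.4 CPM in the 5 Perthes rabbits, below that of every control, and *CXCR1* took 72.5% to 93% of it there against 62.8% to 64.8% in the control group.

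*CCR3* (gene 100189557), the eotaxin receptor of eosinophils, was measured at 0.135, 0.524, 0.220, 0.218 and 0.034 CPM in Perthes rabbits 1 to 5 and at 1.61, 0.740 and 0.865 CPM in the controls. Every Perthes rabbit was below every control. The change on the log2 scale was -2.23 (SE 0.62, edgeR adjusted p = 0.0423). The Perthes rabbits held 1 to 14 counts, and *CCR3* passed the low-count filter through the control group. The call was lost when any 1 rabbit other than Perthes rabbit 2 was left out, with adjusted p-values from 0.0573 to 0.165. Of the 6 eosinophil, basophil and mast cell markers listed, edgeR called none, while 6 were lower at an unadjusted p below 0.05, DESeq2 called 3 lower, and 5 had every Perthes rabbit below every control. Their summed level was 2.67 to 393 CPM in the Perthes disease group and 524 to 1361 CPM in the control group, with none at 0, and their part in the level of *CCR3* was not tested. Of the eotaxins, the ligands of *CCR3*, *CCL24* was listed and was at 0.112 CPM or less in every rabbit. *LOC100354652*, which is also described as *CCL24*, was at 0.150 to 0.536 CPM and was not tested.

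*CCR1* and *CCR7* are the receptors of inflammatory CC ligands and of *CCL19* and *CCL21*, respectively. *CCR1* was measured at 73.2, 72.1, 63.7, 39.0 and 82.6 CPM in Perthes rabbits 1 to 5 and at 76.1, 47.6 and 38.6 CPM in the controls. The groups overlapped and *CCR1* was not called (log2 fold change 0.29, SE 0.29, edgeR adjusted p = 0.519). *CCR7* was measured at 3.34, 4.08, 5.25, 4.37 and 11.2 CPM in Perthes rabbits and at 2.72, 2.82 and 1.96 CPM in the controls. Its groups did not overlap, the log2 fold change was 1.18 (SE 0.42, edgeR adjusted p = 0.0889), and DESeq2 gave an adjusted p of 0.0333. *CX3CR1*, the fractalkine receptor, was at 3.49 to 20.1 CPM against 4.61 to 8.31 CPM (log2 fold change 0.77, SE 0.48, edgeR adjusted p = 0.305).

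The receptors of lymphocyte homing were not called by edgeR with all rabbits. *CXCR5*, the receptor of *CXCL13* on B cells and follicular T cells, had the lowest estimate among them. It was at 0.236, 2.55, 0.918, 0.728 and 0.340 CPM in Perthes rabbits 1 to 5 and at 3.82, 5.01 and 2.29 CPM in the controls (log2 fold change -1.96, SE 0.67, edgeR adjusted p = 0.078, DESeq2 adjusted p = 0.0209). Perthes rabbit 2 alone lay within the control range, and without it *CXCR5* was called lower (log2 fold change -2.74, edgeR adjusted p = 0.00924). Of the 7 B cell markers listed, 6 were tested and *MS4A1* was called lower, while 3 were lower at an unadjusted p below 0.05 and DESeq2 called 2 lower. Their summed level was 53.6 to 81.6 CPM in the Perthes disease group against 56.5 to 102 CPM in the control group. *EBF1*, at 43.7 to 57.2 CPM against 22.8 to 52.5 CPM, made up most of the sum in the Perthes disease group and was the only marker tested with a log2 fold change above 0. Without *EBF1*, which was set aside after its values were seen, the sum was 5.88 to 28 CPM in the Perthes disease group and 30.5 to 49.5 CPM in the control group, and the groups did not overlap. *VPREB1* was at 0 in Perthes rabbits 1 and 5, and the part of these cells in the level of *CXCR5* was not tested. *CCR9*, the *CCL25* receptor, was at 0.582 to 2.35 CPM against 2.00 to 3.49 CPM (log2 fold change -0.81, SE 0.45, edgeR adjusted p = 0.244).

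*CXCR3*, *CXCR6*, *CCR4*, *CCR6* and *XCR1* mark subsets of T cells, NK cells and dendritic cells. Their log2 fold changes lay between -0.05 (*CXCR6*) and 0.51 (*XCR1*), and their edgeR adjusted p-values between 0.563 and 0.995. *CXCR3* was at 0.655 to 2.61 CPM in the Perthes disease group and 0.564 to 2.25 CPM in the control group. *CXCR6* was at 0.982 to 3.93 CPM against 0.952 to 4.11 CPM. The levels of *CCR4*, *CCR6* and *XCR1* stayed between 0.109 and 2.65 CPM in all 8 rabbits. None of the 7 T cell markers tested was called by edgeR or DESeq2, with 0 at an unadjusted p below 0.05, and the sum of the list was 7.13 to 22.3 CPM in the Perthes disease group and 15.7 to 31.5 CPM in the control group. *CCR8* was at 0.511 CPM in Perthes rabbit 5 and at 0.143 CPM or less elsewhere, and *CCR10* was at 0.214 CPM or less in every rabbit.

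Of the 4 atypical receptors, *ACKR1* was called lower. *ACKR1* (gene 100359218), the Duffy antigen receptor of venular endothelium and red cells that binds many inflammatory chemokines, was measured at 3.31, 8.31, 4.41, 2.58 and 1.63 CPM in Perthes rabbits 1 to 5. The controls were at 34.5, 17.2 and 18.9 CPM. The highest Perthes rabbit, Perthes rabbit 2, was below the lowest control, and the means were 4.05 ± 2.59 CPM (SD, n = 5) and 23.5 ± 9.51 CPM (SD, n = 3). *ACKR1* had a log2 fold change of -2.54 (SE 0.47, edgeR adjusted p = 0.0139), and the adjusted p was 0.0614 without control 1 and 0.0519 without control 2. The 5 erythroid markers reported here summed to 26.7 to 1728 CPM in the Perthes disease group and 3634 to 4353 CPM in the control group. All 5 had every Perthes rabbit below every control, with none at 0 in any library. None of the 5 was called by edgeR, with 5 lower at an unadjusted p below 0.05, and DESeq2 called 4 lower. The 8 endothelial markers summed to 316 to 489 CPM in the Perthes disease group and 383 to 490 CPM in the control group. Of these, edgeR called none and DESeq2 called 1 higher, with 1 higher at an unadjusted p below 0.05. The part of either cell type in the level of *ACKR1* was not tested.

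The other atypical receptors were not called. *ACKR2*, a scavenger of inflammatory CC chemokines, was measured at 8.95, 23.6, 21.8, 19.5 and 24.5 CPM in Perthes rabbits 1 to 5 and at 7.82, 20.2 and 21.3 CPM in the controls (log2 fold change 0.26, SE 0.39, edgeR adjusted p = 0.682). The lowest rabbit of each group was number 1, and the other 6 rabbits lay between 19.5 and 24.5 CPM. *ACKR3*, which takes up *CXCL12* and *CXCL11*, was at 14.8, 20.4, 18.9, 38.9 and 14.3 CPM against 11.8, 11.4 and 21.1 CPM (log2 fold change 0.54, SE 0.37, edgeR adjusted p = 0.349). Perthes rabbit 4 had the highest *ACKR3* level. *ACKR4*, a scavenger of *CCL19*, *CCL21* and *CCL25*, was at 0.844 to 1.98 CPM against 1.5 to 4.23 CPM (log2 fold change -0.99, SE 0.40, edgeR adjusted p = 0.123).

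**Figure D4:**
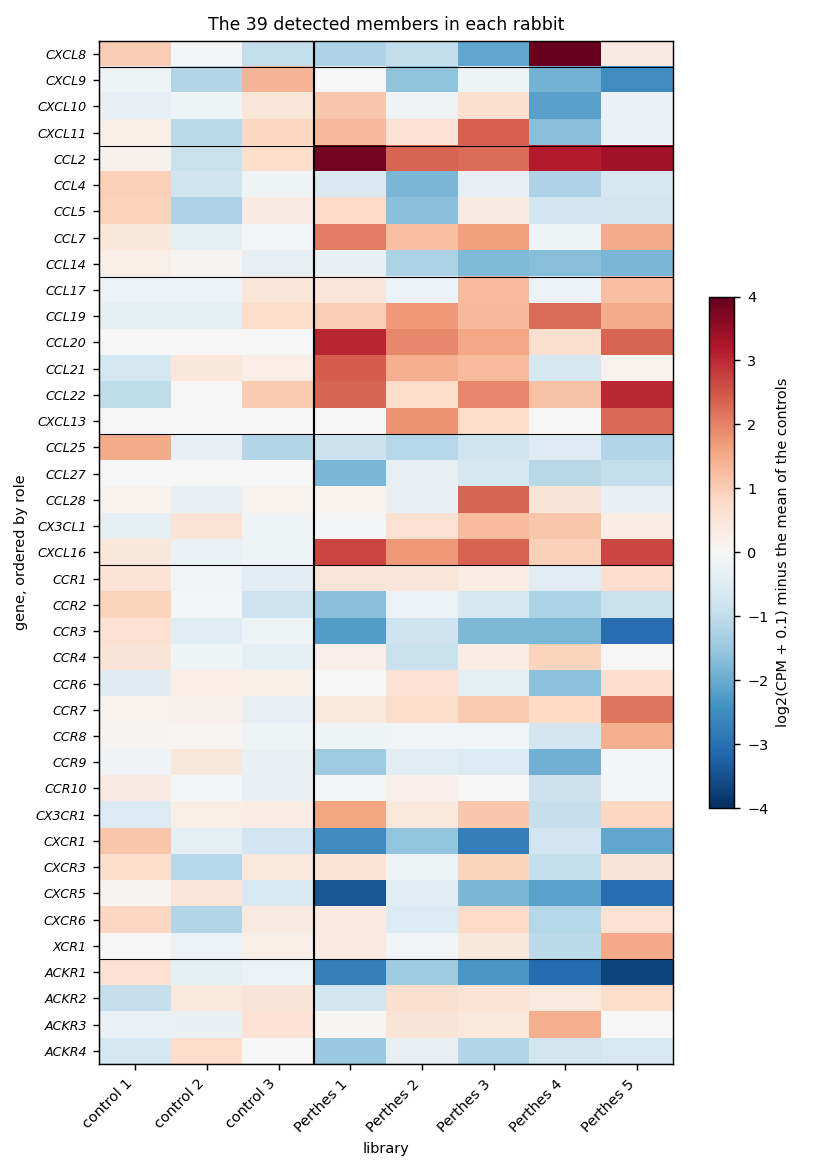
The 39 detected genes by row, ordered by role, in the 3 control and 5 Perthes libraries, coloured by log2(CPM + 0.1) minus the mean of the controls, with darker red for higher and darker blue for lower. *CCL2*, *CCL20* and *CXCL16* are red in all 5 Perthes rabbits, *ACKR1* and *CCR3* are blue in all 5, and Perthes rabbit 4 is set apart by *CXCL8*.

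Set beside each other, the ligands called higher and their receptors gave different values. *CCL2* had a log2 fold change of 3.81, while that of its receptor *CCR2* was -1.05. *CCL20* was at 3.64 and its receptor *CCR6* at 0.01. *CXCL16* was at 2.20 and its receptor *CXCR6* at -0.05, and *CCL19* was at 2.03 and its receptor *CCR7* at 1.18. None of these 4 receptors was called, and the difference between a ligand and its receptor was not tested. For *CXCR1*, which was called lower, the ligand *CXCL8* was not called.

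The Perthes rabbits differed among themselves. Among the genes tested, Perthes rabbit 4 was the lowest of its group for the ligands *CCL20*, *CXCL16*, *CCL7*, *CXCL10*, *CXCL11* and *CCL21*. It was also the lowest for the receptors *CCR1*, *CCR6*, *CCR9*, *CX3CR1*, *CXCR3*, *CXCR6* and *XCR1*, and in the sum of the T cell markers, at 7.13 CPM. It was the highest for *CXCL8*, *CCL19*, *CCR4*, *CXCR1* and *ACKR3*. The 6 monocyte and macrophage markers listed summed to 1651, 895, 1233, 450 and 1571 CPM in Perthes rabbits 1 to 5 and to 370 to 431 CPM in the controls, and 4 of the 6 (*CSF1R*, *CD68*, *CD14* and *MRC1*) were called higher. Perthes rabbit 4 was also the lowest of its group in this list, and rabbits 1 and 5, the highest in the list, had the highest levels of *CXCL16*. For *CCL2*, Perthes rabbit 4 was at 1.56 CPM, above Perthes rabbits 2 and 3 at 0.824 and 0.771 CPM. None of the 6 markers was at 0 in any library. The part of these cells in the levels of *CXCL16* and *CCL2* was not tested.

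A further 11 genes carried other symbols but were annotated as chemokines in the deposited table. They were found after their values were seen, and 10 were tested. *LOC103351517*, described as a *CCL7* gene, was called higher, at 1.06 to 8.95 CPM against 0.388 to 0.464 CPM in the controls (log2 fold change 3.08, SE 0.71, edgeR adjusted p = 0.0229). *LOC103351522*, described as *CCL23*, was called lower, at 0.338 to 4.80 CPM against 15.8 to 33.5 CPM (log2 fold change -3.20, SE 0.68, edgeR adjusted p = 0.0184). *LOC100008921*, described as platelet microbicidal protein 1, was also called lower, at 0.236 to 5.28 CPM against 14.3 to 29.4 CPM (log2 fold change -3.36, SE 0.80, edgeR adjusted p = 0.0253). For these 3 genes the groups did not overlap.

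The groups also did not overlap for *LOC100348776*, described as CCL3-like, and for *PPBP*, the platelet basic protein that is cleaved to a neutrophil attractant. *LOC100348776* was at 0.674 to 5.64 CPM against 0.143 to 0.632 CPM (log2 fold change 2.55, SE 0.80, edgeR adjusted p = 0.0613). *PPBP* was at 0.304 to 17 CPM against 28.0 to 62.8 CPM (log2 fold change -3.09, SE 0.92, edgeR adjusted p = 0.0525). The 4 platelet and megakaryocyte markers listed, of which *PPBP* is 1, summed to 6.59 to 96.2 CPM in the Perthes disease group and 152 to 419 CPM in the control group. *ITGA2B* was called lower among them, *GP9* and *GP1BA* were at 0 in Perthes rabbit 1, and their part in the values of *PPBP* and *LOC100008921* was not tested. The growth-regulated chemokines *GRO-A* and *GRO-B* had log2 fold changes of 1.60 (SE 0.77, edgeR adjusted p = 0.185) and -1.50 (SE 0.53, edgeR adjusted p = 0.0874). The expected counts of *GRO-A* and *GRO-B* were not whole in Perthes rabbits 1 and 4 and control 1, so these values are uncertain. They were 36.89, 39.85 and 4.57 for *GRO-A* and 11.11, 22.4 and 36.45 for *GRO-B*. *LOC103351517* and *CCL7*, which share a description, had whole counts in every library. Whether reads of the 1 gene were counted for the other was not tested.

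*TNFAIP6*, a hyaluronan-binding protein that also binds chemokines, was called higher, at 11.5 to 25.2 CPM in the Perthes disease group against 3.22 to 5.68 CPM in the control group (log2 fold change 1.93, SE 0.34, edgeR adjusted p = 0.0133). The chemerin receptors *CCRL2* and *CMKLR1*, their ligand *RARRES2*, the chemokine-cleaving peptidase *DPP4* and *TAFA4* were not called. *CCRL2* was at 3.78 to 28.0 CPM against 12.4 to 46.6 CPM (log2 fold change -1.33, SE 0.68, edgeR adjusted p = 0.209).

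Downstream of the receptors, 58 of 64 genes written for the G protein, kinase and cytoskeletal steps had a single identifier in the table and were tested. *RGS1* was called higher and 11 genes were called lower, where 6.21% and 8.86% of all genes tested were called. The median log2 fold change of the list was -0.27, against 0.02 over all genes tested. *RGS1*, a GTPase-activating protein that dampens chemokine receptor signals in lymphocytes and macrophages, was measured at 35.5, 7.19, 11.9, 2.33 and 11.6 CPM in Perthes rabbits 1 to 5 and at 0.143, 0.282 and 0.565 CPM in the controls. Each Perthes rabbit was above each control, with Perthes rabbit 1 the highest and Perthes rabbit 4 the lowest. *RGS1* had a log2 fold change of 5.35 (SE 0.98, edgeR adjusted p = 0.0136).

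The 11 genes called lower fell into several steps of the pathway. The receptor kinase *GRK6* and the arrestin *ARRB2*, which switch receptors off, had log2 fold changes of -1.97 (SE 0.37) and -1.37 (SE 0.31). *RGS14* and *RGS18*, regulators of G protein signaling, were at -2.44 (SE 0.54) and -1.89 (SE 0.42). The leukocyte phosphoinositide 3-kinases *PIK3CG* and *PIK3CD* were at -1.60 (SE 0.30) and -1.75 (SE 0.41), and the hematopoietic GTPase *RAC2* was at -1.34 (SE 0.31). The others were *RASGRP2* at -2.91 (SE 0.73), an activator of RAP1 in platelets and leukocytes, *PRKCB* at -2.0 (SE 0.33), the myeloid kinase *FGR* at -1.75 (SE 0.35) and the transcription factor *FOXO3* at -1.04 (SE 0.19). In all 11 every Perthes rabbit was below every control, and the edgeR adjusted p-values were from 0.0128 to 0.0303. Over the whole list every Perthes rabbit was below every control for 12 genes, against 13.9% of all genes tested. Calls over the list also changed when single rabbits were left out. Leaving out control 1 or control 2 left none of the list called in either direction, with 3 and 1 higher and 11 and 21 lower at an unadjusted p below 0.05, and leaving out Perthes rabbit 3 or 5 left 6 and 5 called lower, while over all genes 646 and 550 were then called lower. Without Perthes rabbit 4, 3 of the list were called higher, where 1267 of 15161 genes were called higher. Without Perthes rabbit 2, Perthes rabbit 4 or control 3, 12, 12 and 15 of the list were called lower. Over all genes, 1628, 1423 and 1183 were then called lower. Of the 58 genes, 39 had log2 fold changes below 0, against 7406 of the 15305 genes tested. DESeq2 called 15 lower, where 11% of all genes with an adjusted p in that test were called lower. Among the genes that edgeR did not call, the lowest were *RGS2* at -1.27 (SE 0.38, adjusted p = 0.0522), *PIK3R6* at -1.25 (SE 0.39, adjusted p = 0.0609) and *WAS* at -1.03 (SE 0.34, adjusted p = 0.074). The kinases and GTPases *RAC1*, *RHOA*, *CDC42*, *PAK1*, *SRC* and *PTK2* and the G protein subunits *GNAI1*, *GNAI2* and *GNAI3* were not called, with log2 fold changes between -0.08 (*GNAI2*) and 0.60 (*GNAI3*).

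Marker lists of several blood cells also differed between the groups. Perthes rabbit 1 had the highest sum of its group for the signaling list, at 5068 CPM against 4548 to 7492 CPM in the controls. The same rabbit had the lowest sums of its group for the neutrophil, eosinophil and platelet lists, at 27.4, 2.67 and 6.59 CPM. The median log2 fold change was -3.76 over the 7 neutrophil markers, -2.95 over the 6 eosinophil, basophil and mast cell markers and -3.24 over the 4 platelet and megakaryocyte markers, and every Perthes rabbit was below every control for 7, 5 and 4 of them. The median over the 6 monocyte and macrophage markers was 1.62. The part of these cells in the values of *RGS1* and of the 11 genes called lower was not tested.

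**Figure D5:**
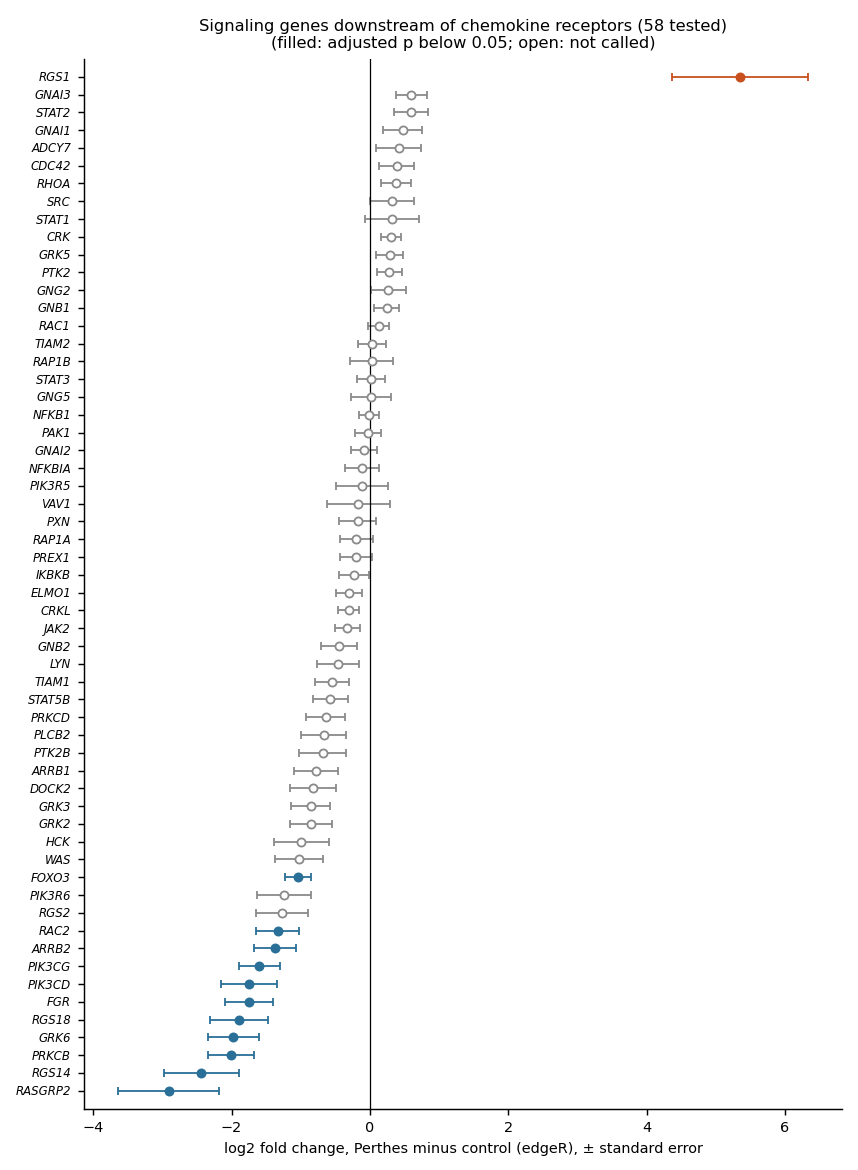
Log2 fold change of Perthes disease over control on the horizontal axis for the 58 signaling genes tested, sorted by value, with bars of 1 standard error and filled points for those with an adjusted p below 0.05 in edgeR. *RGS1* at 5.35 is the filled point on the right, and the 11 filled points on the left run from -1.04 (*FOXO3*) to -2.91 (*RASGRP2*).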

How the data were processed

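Total RNA of the femoral head was depleted of ribosomal RNA and sequenced from strand-specific libraries of 5 Perthes and 3 control rabbits. The authors filtered the reads with SOAPnuke, and per the submitters' processing notes HISAT2 2.0.4, RSEM 1.1.17 and HTSeq 1.99.2 were used. The values the authors deposited are unnormalized expected counts of genes, of which up to 10.7% were not whole and were rounded here. Another 8 columns repeat the 8 columns used and were left out. The small RNA libraries were not used here.

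edgeR 4.0.16 (R 4.3.3) was run with TMM factors, filterByExpr on the groups and its quasi-likelihood test, without covariates and with Benjamini-Hochberg adjustment over 15305 genes, at a biological coefficient of variation of 0.361. Standard errors were obtained as the absolute log2 fold change over the root of F. DESeq2, which the authors used in another version, was an alternative, run here as version 1.42.0. The test was run on simulated data: with 200 of the 15305 genes changed by a log2 fold of 3, edgeR recovered 92.5% and called 12 unchanged genes, and DESeq2 recovered 95% and called 61. The simulated counts were drawn independently for each gene. These rates do not describe smaller changes, genes with few counts or shifts shared by many genes. Exact permutation tests used scipy 1.17.1 on Python 3.11.15, on log2(CPM + 0.1) for levels and on percents for shares of reads.

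The genes of the set, the roles, the signaling list and the 16 marker lists were chosen with earlier results of these data known. Every detected gene of the set was named, with values in each rabbit for those called, those whose groups did not overlap and the 8 with the highest mean CPM. Gene order came from the RefSeq assembly mOryCun1.1, used for names and neighbours alone, and all 45 identifiers matched. Results for 1 of these genes and for 1 marker are not reported here. Control 3 was numbered from its sample code, since its title repeats the number of control 2.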

Additional observations from a re-analysis of the deposited data

Results flagged for a closer look

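In the Perthes disease group, 6 of the 39 detected genes had 1 rabbit set apart from the other 4 by more than Dixon's 95% critical value of 0.71 for the gap over the range. Chance alone flags about 1 in 20 groups when values are normally distributed. The CPM were not put on a log scale, and all 6 flagged values were the highest of their group, so this rate may not hold here. *CXCL8* was at 201 CPM in Perthes rabbit 4 and at 2.68 to 14.9 CPM in the others (gap over range 0.938). *ACKR3* was at 38.9 CPM in Perthes rabbit 4 and at 14.3 to 20.4 CPM in the others (0.75). *CCL14* was at 23.5 CPM in Perthes rabbit 1 and at 7.96 to 11.8 CPM in the others (0.754). *CCR7* was at 11.2 CPM in Perthes rabbit 5 and at 3.34 to 5.25 CPM in the others (0.757). *CCR8* was at 0.511 CPM in Perthes rabbit 5 and at 0.0364 to 0.112 CPM in the others (0.84). *CCL28* was at 0.514 CPM in Perthes rabbit 3 and at 0 to 0.0728 CPM in the others (0.858).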

How the results depend on the processing

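The 8 called genes kept their direction in all 105 alternative fits, but their adjusted p was above 0.05 in 47 of them. Of 342 alternative fits of the 25 genes not called, 6 passed the threshold and 21 changed direction. Against 4 genes called higher, DESeq2 called 7. The thresholds of the study gave 0 in edgeR, as over all genes in either direction, and 2 in DESeq2. A minimum of 10 counts in every library left 1, where 832 of 13408 genes were called higher. *CCL2*, *CCL19* and *CCL20* had fewer than 10 counts in every control, so this minimum removed them and they were not tested. With 1 rabbit fewer, 0 to 4 were called higher. Against 4 called lower, the thresholds of the study gave 0 in edgeR and 1 in DESeq2, and 1 rabbit fewer gave 0 to 3. Against 3 genes whose groups did not overlap downward, library totals alone gave 5 and 1 rabbit fewer gave 3 to 7. With 1 rabbit fewer, fewer values can overlap, so a rise is built into that setting. The signaling list, with 1 higher and 11 lower, gave 0 higher under the count minimum. This minimum removed *RGS1*, which had 4 and 8 counts in controls 1 and 2. With 1 rabbit fewer the list gave 0 to 3 higher and 0 to 15 lower. The cause of the other changes was not tested.

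The replicate block gave 0 calls for the set and 0 for the list in both directions, as for all 15305 genes, of which 3152 had an unadjusted p below 0.05; 7 genes of the set were higher and 7 lower at that level. Whether the numbers pair the rabbits is not stated in the labels. The 3 same-numbered pairs had correlations of -0.317 to 0.161, and the 12 other pairs had -0.314 to 0.435. With 3 controls these values cannot decide it. Under the block *CXCL8* was at -1.45, *CCR4* at -0.16 and *CXCR6* at 0.20. Under library totals *CCR6* was at -0.08. *CXCR1* summed with *CXCR2*, an alternative chosen after seeing the data, was at -2.29. Leaving out 1 rabbit in turn, the log2 fold changes ran from -0.93 to 2.41 for *CXCL8*, -0.24 to 0.42 for *CXCL10*, -0.83 to 0.10 for *CCL5*, -0.09 to 0.59 for *CCR4*, -0.23 to 0.27 for *CCR6*, -0.29 to 0.47 for *CXCR3*, -0.45 to 0.39 for *CXCR6* and -0.07 to 0.49 for *ACKR2*. For genes with few counts, such as *CCL20*, depth limits the fold.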
